A study of Homo sapiens with 10 samples.

Results

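The kinesin mRNAs of HEK293 cells, a human embryonic kidney line, were followed through the culture and irradiation steps that precede crosslinking and immunoprecipitation of RNA-binding proteins (CLIP). Members were all genes whose symbol is KIF or KIFC followed by a number and at most a letter A to C. The files held 38 such genes among 24992 genes and unnamed transcripts. They comprised 8 mitotic kinesins (KIF11, KIF14, KIF20A, KIF20B, KIF23, KIF2C, KIF4A and KIFC1), 14 transport kinesins (KIF1A, KIF1B, KIF1C, KIF3A, KIF3B, KIF3C, KIF5A, KIF5B, KIF5C, KIF13A, KIF13B, KIF16B, KIF17 and KIFC3), 6 further spindle kinesins (KIF2A, KIF2B, KIF4B, KIF15, KIF18A and KIF22) and 10 others (KIF6, KIF7, KIF9, KIF19, KIF21A, KIF21B, KIF24, KIF25, KIF26A and KIF26B). KIF12, KIF18B, KIF27 and KIFC2 carry symbols of the same form and were not analysed here.

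Kinesins are motor proteins that hydrolyse ATP to walk along microtubules or to take microtubule ends apart. Transport kinesins carry vesicles, mitochondria and other cargo, most of them toward microtubule plus ends, and many bind their cargo through light chains or adaptor proteins. Mitotic kinesins build the spindle, move chromosomes and bundle the microtubules of the midzone during cytokinesis, and their mRNAs are made mainly in the G2 and M phases of dividing cells.

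Polyadenylated RNA was sequenced in 10 libraries of HEK293 cells. In 4 groups of 2 libraries, A and B, the cells had received 4-thiouridine (4SU, a uridine analogue that enters new RNA) at 1 mM for 12 to 14 h and ultraviolet light of 365 nm, the same 4SU without light, light of 254 nm without 4SU, or neither (untreated). For another pair of libraries the cells were given siRNA to HuR, an RNA-binding protein that stabilises AU-rich mRNAs, or to GFP, without 4SU or light. HEK293 is a single established line, and nothing in the labels ties the libraries of a group to separate cultures.

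The 8 libraries held 2238569 to 3099769 tags, and the siRNA libraries 9016803 (HuR) and 8688262 (GFP). Kinesin mRNAs made up 0.0454% and 0.0706% of each library after 4SU with 365 nm light, 0.178% and 0.241% with 4SU alone, 0.0794% and 0.0586% after 254 nm light, and 0.194% and 0.254% in untreated cells. Transcript lengths, as medians weighted by tags, were 1147 and 1431 nt in the 365 nm libraries, 2373 and 2850 nt in those with 4SU alone, 1534 and 1305 nt in the 254 nm libraries, and 2666 and 3029 nt in untreated ones. Levels below are normalised CPM (tags scaled to library size with TMM factors), so each is relative to the rest of its library. In bulk RNA, fewer cells that express a gene and less of its RNA per cell cannot be told apart. Of 9 HEK293 markers all were in the files, among them IRS4, NEFL and KRT18, while PAX2, LHX1 and KRT8 stayed below 5 CPM in all 10 libraries. EYA1 and NEFM reached at most 14.3 and 9.44 CPM, both with the GFP siRNA. VIM ran from 0 CPM in untreated library B to 16.8 CPM in 365 nm library A. With the HuR and GFP siRNA VIM had 0.46 and 0.56 CPM. Of 9 markers of other cell types 6 were in the files, and their summed level was 65.1 to 72.1 CPM after 4SU with 365 nm light, 14.5 to 20.2 with 4SU alone, 13.6 to 16.1 after 254 nm light and 13.8 to 15.9 in untreated cells. COL1A1 made up most of that sum, DCN was at 0 in the 8 libraries, and PTPRC was at 0 in 7 of them. The part of these markers in the kinesin results was not tested.

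Promoters are shown here because the mitotic and transport classes are compared throughout. The cell cycle homology region (CHR, TTTGAA) and the CCAAT box are known elements of genes that are switched on in G2 and M. Windows of 250 bases before to 50 bases after the RefSeq start (GRCh38.p14) were found for 32 of the 38 members and searched on both strands, and in the windows printed here no match of one motif overlaps one of the other. TTTGAA was present in 6 of 8 mitotic kinesin windows (KIF11, KIF14, KIF20B, KIF23, KIF4A and KIFC1), in 1 of 11 transport kinesin windows (KIF5B), in 3 of 6 windows of the further spindle kinesins (KIF15, KIF18A and KIF4B), in 0 of 7 of the others, and in 15.2% of 35116 promoter windows of all genes. CCAAT was present in 7 of 8 mitotic windows, in 4 of 11 transport windows (KIF1B, KIF3B, KIF5B and KIF5C), in 3 of 6 further spindle windows (KIF18A, KIF22 and KIF4B), in 2 of 7 others (KIF24 and KIF6), and in 34.6% of all windows. The KIF2C window held neither motif, and that of KIF20A held CCAAT alone. The 4 windows below, all on the plus strand, are those of the spindle motor KIF11 (chr10:92592880-92593179), the midzone motor KIF23 (chr15:69414099-69414398), the minus-end motor KIFC1 (chr6:33391573-33391872) and the vesicle motor KIF1C (chr17:4997700-4997999), the kinesin with the largest increase at 365 nm. Capitals mark TTTGAA and CCAAT on either strand, so that ATTGG and TTCAAA are the same motifs read on the opposite strand.
KIF11: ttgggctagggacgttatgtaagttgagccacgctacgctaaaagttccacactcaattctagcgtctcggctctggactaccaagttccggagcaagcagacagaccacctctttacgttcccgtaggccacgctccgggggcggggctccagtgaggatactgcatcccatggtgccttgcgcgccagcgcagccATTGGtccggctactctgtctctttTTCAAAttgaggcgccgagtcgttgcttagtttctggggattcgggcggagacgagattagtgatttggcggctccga
KIF23: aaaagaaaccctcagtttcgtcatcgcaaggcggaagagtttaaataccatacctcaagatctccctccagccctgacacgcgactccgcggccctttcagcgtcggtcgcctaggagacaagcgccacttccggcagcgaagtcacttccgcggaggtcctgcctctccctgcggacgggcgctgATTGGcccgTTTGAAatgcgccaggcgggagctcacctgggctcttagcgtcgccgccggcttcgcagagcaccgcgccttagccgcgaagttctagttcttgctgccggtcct
KIFC1: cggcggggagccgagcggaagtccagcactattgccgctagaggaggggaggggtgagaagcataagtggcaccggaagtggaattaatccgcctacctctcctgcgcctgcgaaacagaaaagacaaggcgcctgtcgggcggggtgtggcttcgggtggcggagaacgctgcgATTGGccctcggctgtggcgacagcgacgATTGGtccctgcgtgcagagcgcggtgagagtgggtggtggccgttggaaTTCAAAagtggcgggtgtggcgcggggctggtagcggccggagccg
KIF1C: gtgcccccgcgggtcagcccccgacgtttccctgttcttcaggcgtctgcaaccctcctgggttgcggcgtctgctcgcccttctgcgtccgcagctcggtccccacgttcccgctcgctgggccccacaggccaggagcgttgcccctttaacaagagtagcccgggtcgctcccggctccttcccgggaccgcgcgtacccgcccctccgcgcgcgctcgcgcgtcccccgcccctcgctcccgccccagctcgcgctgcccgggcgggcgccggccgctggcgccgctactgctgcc
In the KIF11 window the inverted CCAAT box began 53 bases before the start and the CHR 28 bases before it. In KIF23 these distances were 64 and 55 bases. KIFC1 had inverted CCAAT boxes beginning 75 and 46 bases before the start and a CHR just after it. KIF1C had neither motif. A match describes the letters only, not the binding of a factor.

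In untreated cells the most abundant kinesin per length was KIF5B, a conventional kinesin heavy chain, with 25.3 and 41.6 CPM per kb of transcript. KIF1C, a kinesin-3 that carries vesicles, followed with 28.6 and 26.4 CPM per kb. That value uses the listed length of 4202 nt, and with the 7919 nt of its GENCODE transcript it would be lower. KIF20A, which brings the chromosomal passenger complex to the midzone, had 20.1 and 29.7 CPM per kb. KIF23, the motor of the centralspindlin complex, had 19.0 and 30.1 CPM per kb. These 4 levels overlapped between libraries, so their order is not resolved. KIF2C, which takes microtubule ends apart at kinetochores, KIFC1, which draws spindle poles together, KIF11, which pushes them apart, KIF4A, a chromokinesin that limits midzone length, and the neuronal vesicle motor KIF1A came next, with group means of 14.6 to 19.4 CPM per kb. Every mitotic kinesin but KIF14 and KIF20B, both of which act in cytokinesis, was among the 8 most abundant members. KIF2B had no tags in any of the 8 libraries, KIF25 had among those 8 only 1 tag in each of the libraries of 4SU with 365 nm light, and KIF4B, KIF6, KIF19 and KIF26B stayed below 3 CPM in each of the 8. Those 6 did not pass the expression filter, which left 32 tested kinesins, among them all 8 mitotic and all 14 transport members. Tags were split between transcripts for 17 of the 38 members in some library, above all KIF3A, KIF1B, KIF3B, KIF4A with its near-identical copy KIF4B, KIF11 and KIF14, whose values are therefore uncertain. The untreated libraries also differed from each other, with 21 of the 32 tested kinesins higher in library B and a median absolute log2 difference of 0.67 between the libraries, against 0.28 to 0.54 in the other 3 groups.

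**Figure D1:**
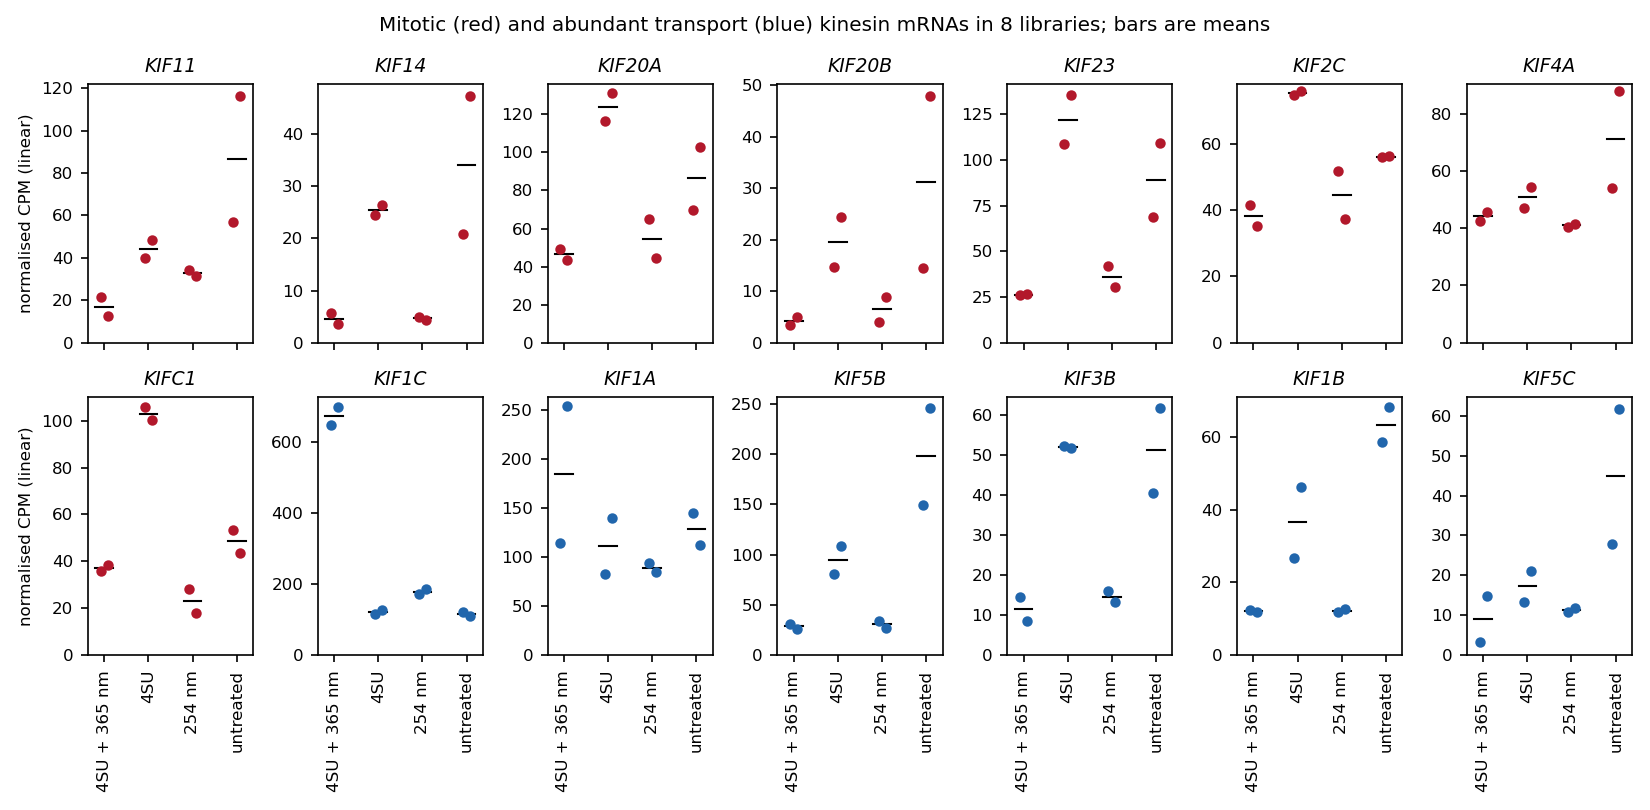
Normalised CPM (linear axes, each starting at 0) of the 8 mitotic kinesins (red) and the 6 most abundant transport kinesins (blue) in the 8 libraries; points are libraries and bars are group means. KIF1C stands at 648 and 698 CPM after 4SU with 365 nm light and at most at 186 CPM elsewhere, while most other members are lower in the crosslinked groups.

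The comparison of 4SU alone with untreated cells addresses the nucleoside itself. Few kinesins changed: 1 of 32 was higher and 3 were lower by edgeR's quasi-likelihood test at an adjusted p under 0.05, where 3.85% and 3.7% of all 13730 tested genes were (7.55% in either direction). The median log2 fold change stood at 0.00 for mitotic kinesins and at -0.16 for transport kinesins, against 0.02 for all tested genes.

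KIFC1 had 106 and 100 CPM with 4SU, against 53.6 and 43.4 CPM in untreated cells, and rose with a log2 fold change of 1.08 ± 0.32 (SE, 2 libraries a group) and an edgeR adjusted p of 0.0286. KIF5B had 80.4 and 109 CPM with 4SU, against 150 and 245 CPM in untreated cells, and fell with a log2 fold change of -1.06 ± 0.33 (edgeR adjusted p 0.0371). KIF5C, its neuronal relative, had 13.4 and 21.1 CPM with 4SU, against 27.9 and 61.8 CPM in untreated cells, a log2 fold change of -1.36 (edgeR adjusted p 0.028). For these 3 genes the libraries of the groups did not overlap. KIF21A, which restrains microtubule growth at the cell cortex, had 11.1 and 14.7 CPM with 4SU, against 23.7 and 46.3 CPM in untreated cells, and likewise fell without overlap, with a log2 fold change of -1.42 (edgeR adjusted p 0.0167). None of the 4 calls held in every fit that left out 1 library. Without untreated library B the log2 fold changes were 0.92 for KIFC1 (edgeR adjusted p 0.124), -0.68 for KIF5B (0.275), -0.69 for KIF5C (0.358) and -0.88 for KIF21A (0.201), and without 4SU library A the adjusted p-values were 0.245 for KIFC1, 0.417 for KIF5B, 0.341 for KIF5C and 0.257 for KIF21A. Single other libraries also ended calls: without 4SU library B the adjusted p was 0.111 for KIFC1, 0.0774 for KIF5B and 0.062 for KIF21A, and without either 365 nm library it was 0.0504 to 0.0571 for KIFC1 and KIF5B. The split was 1 higher and 0 lower with DESeq2, where 257 and 341 of all 13730 tested genes were. It was 0 higher and 1 lower on library totals, where 432 and 236 of them were.

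The other mitotic kinesins did not pass. KIF20A had 117 and 131 CPM with 4SU, against 69.9 and 103 CPM in untreated cells, without overlap (log2 fold change 0.52, edgeR adjusted p 0.351). KIF23 had 109 and 136 CPM with 4SU against 68.9 and 109 CPM in untreated cells (0.46), and KIF2C 74.7 and 75.8 CPM with 4SU against 56.0 and 56.2 CPM in untreated cells (0.42). KIF11 lay lower, with 39.8 and 48.6 CPM with 4SU against 57.0 and 117 CPM in untreated cells and a log2 fold change of -0.97 (edgeR adjusted p 0.0725). KIF14, KIF20B and KIF4A had log2 fold changes of -0.42, -0.65 and -0.48, and their libraries overlapped between the groups. Among 19 tested spindle partners, proteins that work on the spindle or midzone with these motors and that include the kinesin-7 CENPE, CDCA8, a chromosomal passenger, rose (1.01) and ECT2, which activates the contractile ring, fell (-1.32). SPAG9, a scaffold that links kinesin-1 to signalling kinases, was the one called gene of 16 light chains and adaptors, with a log2 fold change of -1.66 (edgeR adjusted p 0.00118). Of 21 dynein and dynactin genes, which form the motor for the opposite direction, 4 fell and 0 rose, led by DYNC1I2 with -2.18.

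Irradiation at 365 nm of 4SU-fed cells, compared with 4SU alone, was accompanied by lower levels of most kinesins relative to the rest of the transcriptome. Of 32 kinesins 18 fell and 2 rose, where 33.7% and 26.1% of all tested genes did so (59.9% in either direction). Of 8 mitotic kinesins 7 fell and 0 rose, with a median log2 fold change of -1.45, against -0.50 for all tested genes. The transport class was mixed, with 6 of 14 lower, KIF1C higher, and a median of -1.03. On library totals, where the all-gene median was -2.40, the split over all kinesins was 0 higher and 28 lower, with 8 of 8 mitotic and 12 of 14 transport members lower. Of all 13730 tested genes, 1019 were higher and 9964 lower on that scale. Kinesin transcripts are long, with a median of 5187.5 nt for the 32 tested members against 2753 nt for all tested genes, and over all tested genes the log2 fold change was lower in longer transcripts (r of -0.433 with log2 length). Of 6 tested HEK293 markers 3 rose and 2 fell, with a median log2 fold change of 1.15. IRS4 was among those that fell, with 14.6 and 16.1 CPM after 365 nm light, against 150 and 214 CPM with 4SU alone. COL1A1, a marker of other cell types, rose (2.08). The part of these markers in the kinesin values was not tested.

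KIF23 had 25.8 and 26.6 CPM after 365 nm light, against 109 and 136 CPM with 4SU alone, a log2 fold change of -2.22 ± 0.37 (SE, edgeR adjusted p 2.69e-06). KIF14 had 5.61 and 3.50 CPM after 365 nm light, against 24.4 and 26.4 CPM with 4SU alone (-2.53 ± 0.54, edgeR adjusted p 0.000116). KIF20B had 3.37 and 4.90 CPM after 365 nm light, against 14.8 and 24.3 CPM with 4SU alone (-2.19 ± 0.59). In these 3 genes every irradiated library lay below every library with 4SU alone, and the difference was larger than 4-fold in the group means. KIF14 rested on only 5 and 5 tags and KIF20B on 3 and 7 in the irradiated libraries. KIFC1 had 35.9 and 38.5 CPM after 365 nm light, against 106 and 100 CPM with 4SU alone (-1.46 ± 0.35). KIF20A had 49.4 and 43.4 CPM after 365 nm light, against 117 and 131 CPM with 4SU alone (-1.42 ± 0.35). KIF11 had 21.3 and 12.6 CPM after 365 nm light, against 39.8 and 48.6 CPM with 4SU alone (-1.43 ± 0.41, edgeR adjusted p 0.00286). KIFC1, KIF20A and KIF11 fell without overlap too. KIF2C had 41.5 and 35.0 CPM after 365 nm light, against 74.7 and 75.8 CPM with 4SU alone (-0.98 ± 0.34, edgeR adjusted p 0.0133). KIF4A was the exception, with 42.6 and 45.5 CPM after 365 nm light, against 47.2 and 54.3 CPM with 4SU alone (-0.20 ± 0.35, edgeR adjusted p 0.625). KIF11 lost its call without irradiated library B (-1.06, edgeR adjusted p 0.117), as did KIF2C (-0.86, 0.142). KIF2C also lost it without irradiated library A (adjusted p 0.05) and without 4SU library B (adjusted p 0.0578). With length and GC trends removed, KIF14 (-1.09), KIF20A (-0.72), KIF23 (-1.33) and KIFC1 (-1.41) were still called lower and KIF4A (0.76) was called higher.

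KIF1C was the opposite extreme. It had 648 and 698 CPM after 365 nm light, against 116 and 127 CPM with 4SU alone, and rose with a log2 fold change of 2.47 ± 0.36 (SE, edgeR adjusted p 2.25e-07). It rested on 578 and 996 tags in the irradiated libraries and 408 and 672 tags with 4SU alone. Scaled by library totals alone, KIF1C had a log2 fold change of 0.55 (edgeR adjusted p 0.187), while the all-gene median on that scale was -2.40. KIF1C alone carried most of the transport class after irradiation. The summed level of the 14 transport kinesins was 870 and 1064 CPM after 365 nm light, against 446 and 585 CPM with 4SU alone, and without KIF1C it was 222 and 367 CPM after 365 nm light, against 330 and 459 CPM with 4SU alone. Summed over the 8 mitotic kinesins, the level was 225 and 210 CPM after 365 nm light, against 532 and 597 CPM with 4SU alone.

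Among the other transport motors, KIF3B, a subunit of heterotrimeric kinesin-2, had 14.6 and 8.4 CPM after 365 nm light, against 52.3 and 51.6 CPM with 4SU alone (-2.23 ± 0.42, edgeR adjusted p 2.13e-05). KIF5B had 31.4 and 25.9 CPM after 365 nm light, against 80.4 and 109 CPM with 4SU alone (-1.74 ± 0.37). KIF1B, a carrier of mitochondria and vesicles, had 12.3 and 11.9 CPM after 365 nm light, against 26.7 and 46.4 CPM with 4SU alone (-1.60), and its edgeR adjusted p was 0.0589 without 4SU library B. KIF5A (-1.94), KIF3C (-1.40) and KIF3A (-1.23) also fell, and each of these 3 calls was lost when some single library was left out, namely for KIF5A without 365 nm library A (edgeR adjusted p 0.0559), for KIF3C without 365 nm library A, 365 nm library B or 4SU library A (0.0604 to 0.0927), and for KIF3A without 365 nm library A, 365 nm library B or 4SU library B (0.0667 to 0.208). With length and GC trends removed KIF3A was at 0.15, and of 14 transport kinesins 1 was called lower and 2 higher. Of all 13730 tested genes, 3170 were then lower and 3740 higher. KIF1A had 114 and 255 CPM after 365 nm light, against 82.4 and 140 CPM with 4SU alone, with overlap (0.74, edgeR adjusted p 0.0697). KIF5C had 3.37 and 14.7 CPM after 365 nm light, against 13.4 and 21.1 CPM with 4SU alone, and did not pass. KIF13A (-0.12), KIF13B (-0.24), KIF16B (-1.85), KIF17 (1.15) and KIFC3 (-0.11) did not pass either, and KIF16B rested on 3 and 0 tags in the irradiated libraries. Of the called members, KIF5A rested on 2 and 6 tags in those libraries and KIF3C on 5 and 11.

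Outside the 2 classes, KIF15, which backs up KIF11 in spindle assembly, had 6.73 and 2.10 CPM after 365 nm light, against 23.3 and 32 CPM with 4SU alone, the largest decrease of a tested kinesin in this comparison (-2.79 ± 0.55, edgeR adjusted p 4.37e-05). KIF15 rested on only 6 and 3 tags in the irradiated libraries. KIF2A, which takes microtubules apart at spindle poles, and KIF18A, which damps chromosome movements, fell with -2.08 and -1.61. KIF24, a motor of the centriole that restrains cilia, fell with -2.21 and KIF7, a regulator of Hedgehog signalling in cilia, with -0.95. In the irradiated libraries KIF24 rested on only 4 and 4 tags, KIF2A on 2 and 14 and KIF18A on 6 and 4. The calls of KIF18A (edgeR adjusted p 0.257) and KIF24 (0.064) were lost without irradiated library B, and that of KIF7 (-0.55, 0.347) without irradiated library A and in 3 other such fits (0.053 to 0.14). KIF9, a motor of motile cilia, had 24.7 and 28.0 CPM after 365 nm light, against 7.96 and 4.71 CPM with 4SU alone, and rose without overlap (2.09 ± 0.45, edgeR adjusted p 0.000143). On library totals the log2 fold change of KIF9 was 0.19. Leaving out each library in turn, 11 of the 20 kinesin calls held in every fit.

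The partners of the mitotic motors were mostly lower too. Of 19 spindle partners 15 fell and 0 rose, with a median log2 fold change of -1.39. INCENP, the scaffold of the chromosomal passenger complex that KIF20A carries, had -2.22, RACGAP1, the partner of KIF23, -2.07, and PRC1, the midzone bundler that KIF4A and KIF14 bind, -2.05 (edgeR adjusted p 1.33e-05, 4.91e-06 and 5.52e-06). ANLN, a scaffold of the cleavage furrow, had -2.12. Dynein and dynactin genes went both ways, with 9 of 21 higher and 5 lower. DCTN3 rose with 3.24, DCTN1, the large dynactin subunit, with 2.55 and DYNLRB1, a dynein light chain, with 2.20, while NDE1, a dynein regulator, fell with -2.30. Of 16 light chains and adaptors 6 fell and 2 rose, among them TRAK1, which couples kinesin-1 to mitochondria (-1.95), KIFBP, which binds and blocks several kinesin motor domains (-1.80), and MAPK8IP1 (1.45). On library totals the splits were 0 higher and 19 lower for spindle partners, 1 and 14 for dynein and dynactin, and 0 and 14 for light chains and adaptors. With length and GC trends removed they were 1 and 8, 8 and 5, and 3 and 3. Over all 13730 tested genes the split was 1019 higher and 9964 lower on library totals. With length and GC trends removed it was 3740 higher and 3170 lower.

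**Figure D2:**
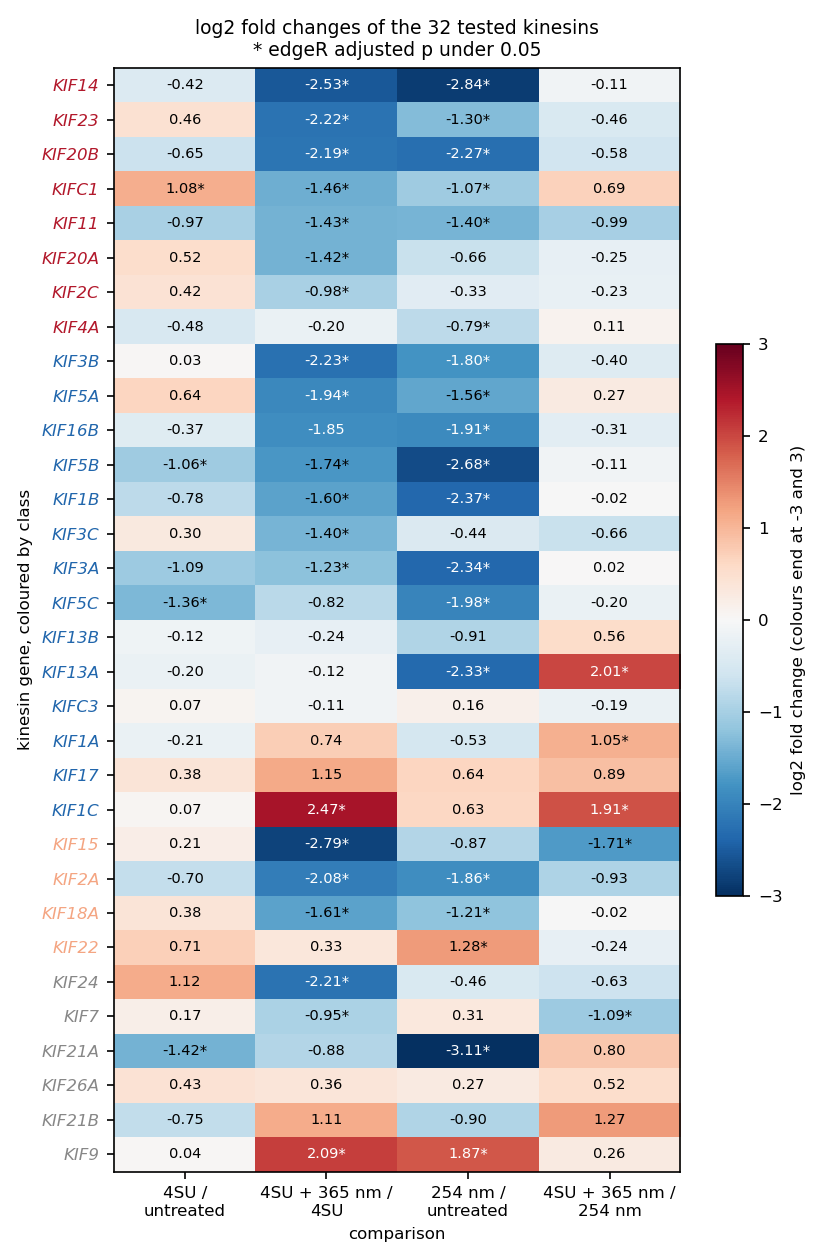
Log2 fold changes (colour and printed value) of the 32 tested kinesins, in rows by class, in 4 comparisons, in columns; an asterisk marks an edgeR adjusted p under 0.05. Blue dominates the columns of 365 nm against 4SU and of 254 nm against untreated, where KIF9 is red in both and KIF1C in the 365 nm columns.

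Irradiation at 254 nm, the wavelength of conventional CLIP, was compared with untreated cells, 2 groups that share no library with the preceding comparison. Of 32 kinesins 17 fell and 2 rose, where 28% and 25.2% of all tested genes did so (53.2% in either direction). Here both main classes were lower. Of 8 mitotic kinesins 6 fell (median log2 fold change -1.18), and of 14 transport kinesins 8 fell (median -1.68), against a median of -0.14 for all tested genes. No member of either class rose.

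The conventional kinesin KIF5B had 34.1 and 27.3 CPM after 254 nm light, against 150 and 245 CPM in untreated cells, a log2 fold change of -2.68 ± 0.36 (SE, edgeR adjusted p 2.7e-07). KIF1B had 11.8 and 12.7 CPM after 254 nm light, against 58.6 and 68.1 CPM in untreated cells (-2.37 ± 0.38). KIF5C had 10.9 and 11.7 CPM after 254 nm light, against 27.9 and 61.8 CPM in untreated cells (-1.98 ± 0.44), and KIF3B 15.9 and 13.2 CPM after 254 nm light, against 40.4 and 61.8 CPM in untreated cells (-1.80 ± 0.37). All 4 fell without overlap, and their calls held in every fit without 1 library. KIF3A (-2.34), KIF13A (-2.33), KIF16B (-1.91) and KIF5A (-1.56) also fell, and the calls of KIF16B (edgeR adjusted p 0.138 without untreated library B and 0.200 without 254 nm library A) and KIF5A (0.113 without 254 nm library B, 0.0582 without 254 nm library A and 0.0512 without untreated library A) depended on single libraries. In the 254 nm libraries KIF16B rested on only 2 and 5 tags, KIF5A on 7 and 5 and KIF13A on 8 and 3. KIF1C had 172 and 186 CPM after 254 nm light, against 120 and 111 CPM in untreated cells, without overlap, and did not pass (0.63 ± 0.34, edgeR adjusted p 0.12). KIF1A had 94.5 and 84.5 CPM after 254 nm light, against 145 and 112 CPM in untreated cells, and did not pass (-0.53). With the length trend removed, 2 of 14 transport kinesins were called lower and 2 higher. With length and GC trends removed, 1 of 14 was called lower and 1 higher, so most of these decreases were no longer called. Over all 13730 tested genes the split was 2292 lower and 2615 higher with the length trend removed. It was 1528 lower and 1653 higher with both removed, against 3848 and 3459 as tested.

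Among the mitotic motors KIF14 had 5.0 and 4.40 CPM after 254 nm light, against 20.9 and 47.4 CPM in untreated cells (-2.84 ± 0.47, edgeR adjusted p 4.01e-06). KIF20B had 4.09 and 8.79 CPM after 254 nm light, against 14.5 and 47.9 CPM in untreated cells (-2.27 ± 0.49). KIF11 had 34.1 and 31.3 CPM after 254 nm light, against 57.0 and 117 CPM in untreated cells (-1.40 ± 0.36). In each of the 3 genes both irradiated libraries lay below both untreated ones, and untreated library B was at least 2-fold above library A. KIF23 had 41.8 and 30.3 CPM after 254 nm light, against 68.9 and 109 CPM in untreated cells (-1.30 ± 0.34), KIFC1 28.2 and 18.1 CPM after 254 nm light, against 53.6 and 43.4 CPM in untreated cells (-1.07 ± 0.34), and KIF4A 40.4 and 41.5 CPM after 254 nm light, against 54.2 and 87.8 CPM in untreated cells (-0.79 ± 0.33). KIF20A, with 65.0 and 44.4 CPM after 254 nm light, against 69.9 and 103 CPM in untreated cells, and KIF2C, with 51.8 and 37.1 CPM after 254 nm light, against 56.0 and 56.2 CPM in untreated cells, did not pass (-0.66 and -0.33). Without untreated library B the edgeR adjusted p was 0.0507 for KIF11 and 0.333 for KIF4A, whose call was lost in 7 of the 8 fits without 1 library, and without 254 nm library B it was 0.0501 for KIF23 and 0.165 for KIFC1. With length and GC trends removed, KIFC1 (-1.60) was the one mitotic kinesin still called lower, KIF14 (-0.62) and KIF23 (-0.20) were no longer called, and KIF11 (0.46), KIF20B (0.10) and KIF4A (0.38) turned in direction without a call.

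KIF21A had the largest decrease of a tested kinesin, with 3.64 and 4.40 CPM after 254 nm light, against 23.7 and 46.3 CPM in untreated cells (-3.11 ± 0.48, edgeR adjusted p 1.54e-06). KIF21A rested on only 8 and 9 tags in the 254 nm libraries. KIF2A (-1.86) and KIF18A (-1.21) fell, and the call of KIF18A was lost in 5 of the 8 fits without 1 library (edgeR adjusted p up to 0.197), and its sign turned with length and GC trends removed (0.07). KIF9 had 15.4 and 28.8 CPM after 254 nm light, against 6.18 and 5.86 CPM in untreated cells, and rose (1.87 ± 0.43, edgeR adjusted p 0.000387). KIF22, a chromokinesin that pushes chromosome arms, had 24.1 and 28.8 CPM after 254 nm light, against 9.76 and 12.0 CPM in untreated cells, and rose (1.28 ± 0.38, edgeR adjusted p 0.00455, or 0.0532 without 254 nm library B). On library totals, a scale that puts the all-gene median at -1, neither KIF9 (0.96) nor KIF22 (0.41) was called. The split over all kinesins on that scale was 0 higher and 25 lower, where 1384 and 6463 of all 13730 tested genes were. Of 19 spindle partners 11 fell and PLK1, the mitotic kinase, named here after its value was seen, rose (0.90, edgeR adjusted p 0.0215), with ANLN (-2.50), ECT2 (-2.17) and ASPM (-1.95) the lowest. Dynein and dynactin genes again divided, with 6 of 21 higher and 5 lower, from DYNLRB1 (2.19) and DCTN3 (2.10) to DYNC1LI2 (-2.14) and DCTN4 (-2.04). Of 16 light chains and adaptors 4 rose, led by the light chain KLC3 (1.53), and 5 fell, led by SPAG9 (-1.98) and TRAK2 (-1.74). On library totals the splits were 0 higher and 14 lower for spindle partners, 2 and 10 for dynein and dynactin, and 0 and 8 for light chains and adaptors. With length and GC trends removed they were 0 and 3, 2 and 3, and 0 and 0. Of all 13730 tested genes, 1653 were then higher and 1528 lower, against 3459 and 3848 as tested.

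The sets of kinesins that fell at 365 nm and at 254 nm overlapped. The 12 members KIF11, KIF14, KIF18A, KIF1B, KIF20B, KIF23, KIF2A, KIF3A, KIF3B, KIF5A, KIF5B and KIFC1 fell in both, which is 66.7% of the 18 that fell at 365 nm and 70.6% of the 17 that fell at 254 nm. Over all tested genes the shared decreases were 55% and 66.3% of those lists, so the kinesin shares lay near those of the transcriptome. KIF9 was the one member that rose in both.

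The direct comparison of 4SU with 365 nm light and 254 nm light asked whether the methods differ. It called 3 kinesins higher and 2 lower, where 15.2% and 12.5% of all tested genes were (27.7% in either direction). KIF1C had 648 and 698 CPM after 4SU with 365 nm light, against 172 and 186 CPM after 254 nm light (log2 fold change 1.91 ± 0.35, edgeR adjusted p 6.25e-05), and was the one call that held in every fit without 1 library. KIF13A, a carrier of endosomes, had 7.85 and 12.6 CPM after 4SU with 365 nm light, against 3.64 and 1.47 CPM after 254 nm light (2.01 ± 0.65, edgeR adjusted p 0.0176, or 0.256 without 365 nm library B and 0.145 without 254 nm library B). KIF13A rested on only 8 and 3 tags in the 254 nm libraries. KIF1A had 114 and 255 CPM after 4SU with 365 nm light, against 94.5 and 84.5 CPM after 254 nm light (1.05 ± 0.36, edgeR adjusted p 0.0257). Without 365 nm library B the value of KIF1A was 0.34 (0.668), and without either 254 nm library its adjusted p was 0.092 and 0.14. KIF15 had 6.73 and 2.10 CPM after 4SU with 365 nm light, against 15.9 and 10.3 CPM after 254 nm light (-1.71, edgeR adjusted p 0.0278, or 0.412 without 365 nm library B and 0.189 without 254 nm library A). KIF7 had 12.3 and 25.9 CPM after 4SU with 365 nm light, against 40.9 and 43.5 CPM after 254 nm light (-1.09, edgeR adjusted p 0.038, or 0.361 without 365 nm library A and 0.103 and 0.117 without either 254 nm library). No mitotic kinesin was called, and their log2 fold changes ran from -0.99 in KIF11 to 0.69 in KIFC1. The split was 3 higher and 0 lower with RLE factors, where 2499 and 1218 of all 13730 tested genes were. It was 1 higher and 13 lower on library totals, where 631 and 5885 of them were.

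The effect of 365 nm light (over 4SU alone) was also set against that of 254 nm light (over untreated) in an interaction term. It called 3 kinesins higher and 0 lower, where 9.99% and 7.08% of all tested genes were (17.1% in either direction). KIF1C had a difference of log2 fold changes of 1.84 ± 0.49 (edgeR adjusted p 0.00676), which held without any single library; on library totals it was 0.79 (edgeR adjusted p 0.259). KIF13A (2.22 ± 0.79, edgeR adjusted p 0.0442) and KIF21A (2.23 ± 0.73, edgeR adjusted p 0.0279) were also called. Their log2 fold changes were -0.12 and -0.88 at 365 nm and -2.33 and -3.11 at 254 nm. Both calls were lost without 365 nm library A (edgeR adjusted p 0.0533 for KIF13A and 0.152 for KIF21A), 365 nm library B (0.283 and 0.0616), 4SU library A (0.134 and 0.0811), 254 nm library B (0.179 and 0.0534) or untreated library B (0.177 and 0.0856), and that of KIF21A also without 254 nm library A (0.0853). On library totals the split was 0 higher and 9 lower, where 494 and 4458 of all 13730 tested genes were. The median difference was -0.21 over the mitotic kinesins and 0.72 over the transport kinesins, against -0.15 over all tested genes.

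The whole procedure of 4SU with 365 nm light, set against untreated cells, shares its libraries with the comparisons above. It called 14 of 32 kinesins lower and 4 higher, where 32.6% and 26.3% of all tested genes were (58.9% in either direction). The highest were KIF1C with 2.54, KIF9 with 2.13 and KIF17, a kinesin-2 of cilia and dendrites, with 1.53, the last with 7.85 and 4.90 CPM after 4SU with 365 nm light, against 3.19 and 0.799 CPM in untreated cells (edgeR adjusted p 0.0481, or 0.266 without untreated library B, and lost in 6 of the 8 fits without 1 library; -0.33 on library totals). The lowest were KIF14 with -2.95, KIF20B with -2.85, and KIF5B and KIF2A with -2.79 each. After 4SU with 365 nm light KIF14 rested on only 5 and 5 tags, KIF20B on 3 and 7 and KIF2A on 2 and 14. KIFC1 had -0.38 and did not pass, with 35.9 and 38.5 CPM after 4SU with 365 nm light, against 53.6 and 43.4 CPM in untreated cells. On library totals the split was 0 higher and 28 lower, with an all-gene median of -2.25. Of all 13730 tested genes, 1047 were higher and 9672 lower on that scale.

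Over all tested genes, transcript length and base composition moved with the changes at 365 nm over 4SU alone and at 254 nm over untreated. The fits were therefore repeated with a smooth trend in length, or in length and GC content, removed from every library. Composition was known for all 32 tested kinesins and for 81.5% of tested genes. With the length trend removed, 365 nm light against 4SU alone left 7 of 32 kinesins lower and 6 higher. Of all 13730 tested genes, 2864 were then lower and 3599 higher. The mitotic median was then -0.89 and the transport median 0.12, against -0.21 for all tested genes. The classes thus stood further apart than before, with a mitotic minus transport difference of -1.01 in place of -0.42, or -0.77 once both trends were taken out. The removed length trend was that of all tested genes (r of -0.433), whereas across the kinesins r was -0.038. Transport transcripts were longer, with a median of 5927.5 nt against 4041.5 nt for mitotic ones. The part of the removal itself in this separation was not tested. For 254 nm light against untreated cells the same steps left 6 lower and 6 higher with the length trend removed, and 3 lower and 2 higher with both trends removed. Over all 13730 tested genes the splits were 2292 lower and 2615 higher, and 1528 lower and 1653 higher. There the class medians came together, at -0.47 for mitotic and -0.50 for transport kinesins with the length trend removed and at -0.11 and -0.31 with both. KIF1C kept its increase at 365 nm with the length trend removed (log2 fold change 3.32) and with both trends removed (3.09), and so did KIF9 (2.80 and 2.72).

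**Figure D3:**
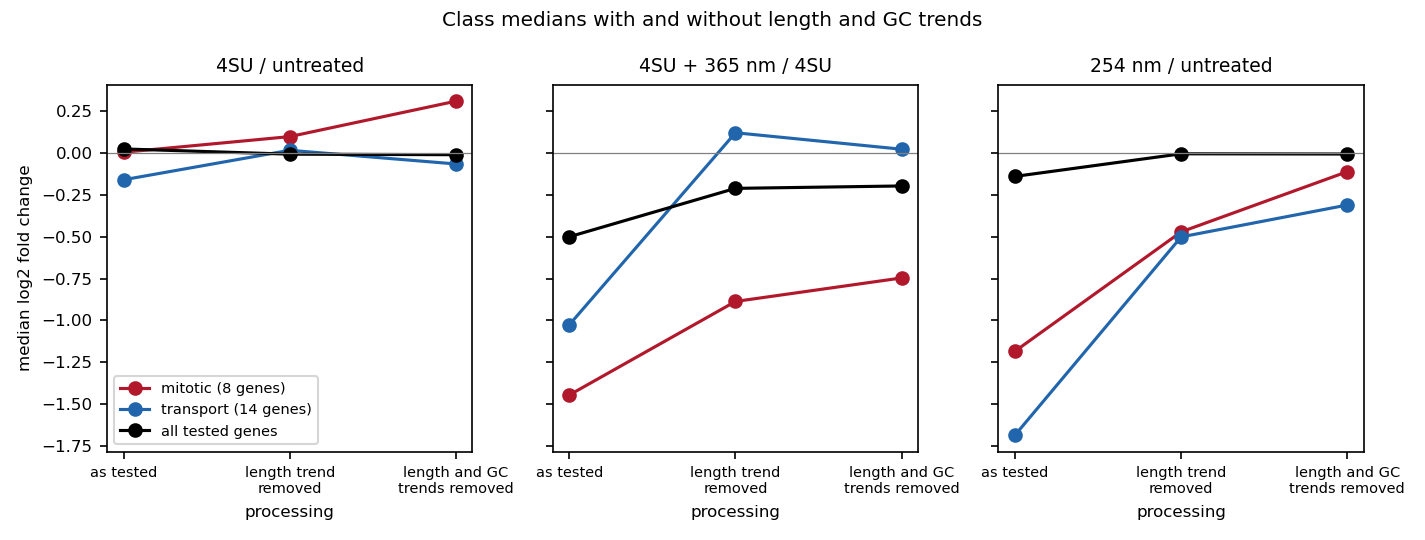
Median log2 fold change of the 8 mitotic kinesins (red), the 14 transport kinesins (blue) and all tested genes (black) in 3 comparisons, as tested, with a length trend removed, and with length and GC trends removed. With the length trend of all tested genes removed, the mitotic and transport medians are -0.89 and 0.12 at 365 nm and -0.47 and -0.50 at 254 nm.

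Across the 32 tested kinesins the log2 fold change was higher in transcripts of higher GC content. Pearson's r was 0.61 at 365 nm against 4SU (Spearman's rho 0.643) and 0.69 at 254 nm against untreated (rho 0.738), against 0.265 and 0.548 over all tested genes with known composition. GC content ran from 34.2% in KIF20B to 70.6% in KIF26A, with class medians of 44.4% in mitotic and 49.96% in transport kinesins. It was taken from GENCODE transcripts, some of which differed in length from the listed ones. Among these were KIF1C (7919 nt, listed 4202), KIF1B (6816, listed 10585) and KIF5A (5824, listed 3897). With length, r across kinesins was -0.038 at 365 nm and -0.471 at 254 nm. These are descriptions across genes that share libraries, and genes are not replicates.

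**Figure D4:**
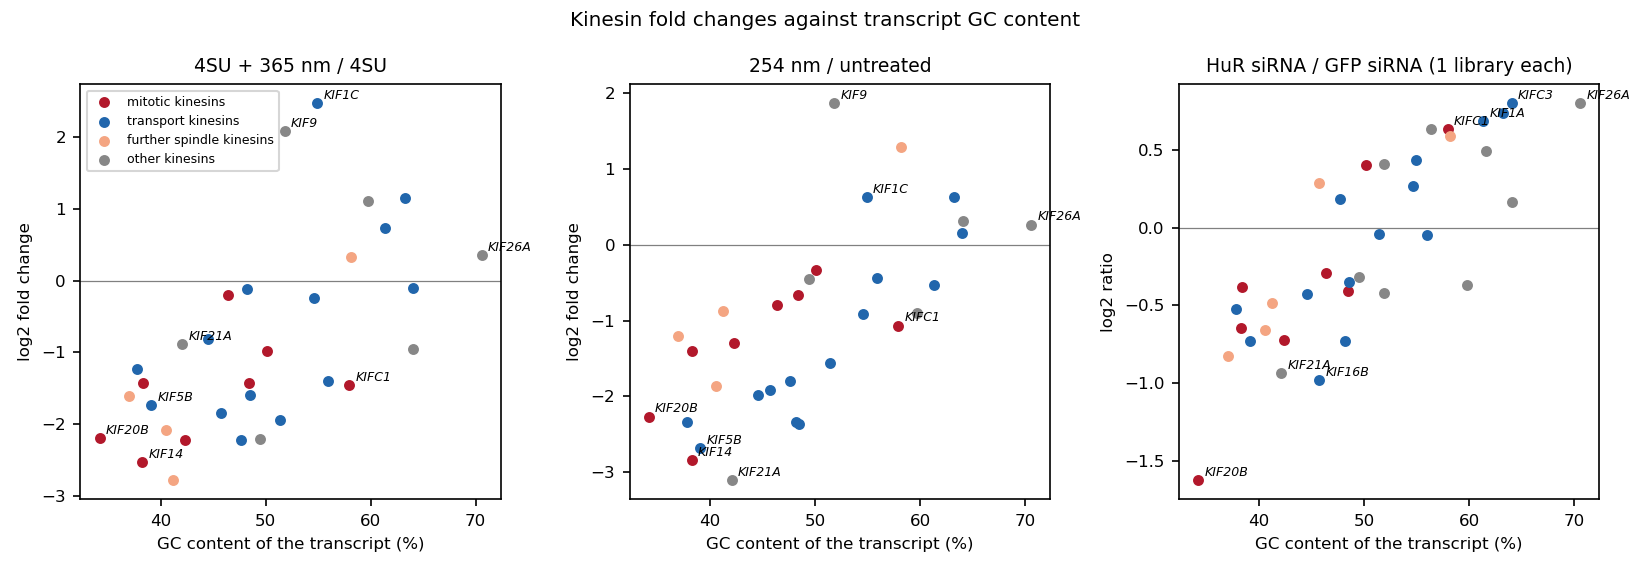
Log2 fold change (or log2 ratio, right) of each kinesin against the GC content of its transcript in percent, coloured by class, for 365 nm against 4SU, 254 nm against untreated and HuR siRNA against GFP siRNA. AU-rich members such as KIF20B and KIF14 lie low in all 3 panels, and KIF1C and KIF9 lie above the cloud at 365 nm.

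The siRNA pair addresses the loss of HuR, with 1 library for each siRNA and therefore no test. ELAVL1, which encodes HuR, had 73.3 CPM with the HuR siRNA and 212 CPM with the GFP siRNA, a log2 ratio of -1.53 with a 95% exact counting interval of -1.66 to -1.40. Of 36 kinesins with at least 10 tags 7 were past 1.5-fold higher and 9 past 1.5-fold lower, where 19.2% and 20.8% of all genes were (40% in either direction). The mitotic kinesins had a median log2 ratio of -0.40 and the transport kinesins of -0.04, against 0.01 for all genes. On library totals the split was 3 higher and 10 lower, where 2642 and 4501 of all 17797 genes were.

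KIF20B stood lowest, with 35.2 CPM with the HuR siRNA and 109 CPM with the GFP siRNA, a log2 ratio of -1.63 (-1.82 to -1.44), the one kinesin past 2-fold. KIF16B, which moves early endosomes, had 12.8 CPM with the HuR siRNA and 25.2 CPM with the GFP siRNA (-0.98), KIF21A 49.5 CPM with the HuR siRNA and 94.6 CPM with the GFP siRNA (-0.93), and KIF18A 18.2 CPM with the HuR siRNA and 32.2 CPM with the GFP siRNA (-0.83). For each of these 4 the counting interval lay below 0. Of the mitotic motors, KIF23 (-0.72) and KIF14 (-0.64) were also past 1.5-fold lower and KIFC1 (161 CPM with the HuR siRNA and 103 CPM with the GFP siRNA, 0.64) past 1.5-fold higher. KIF11 (-0.38), KIF20A (-0.41), KIF4A (-0.29) and KIF2C (0.40) lay inside 1.5-fold. The highest ratios were those of KIF26A (46.7 CPM with the HuR siRNA and 26.8 CPM with the GFP siRNA, 0.80), the minus-end motor KIFC3 (0.80), KIF17 (0.74, with an interval of 0.21 to 1.28) and KIF1A (0.69). KIF1C had 298 CPM with the HuR siRNA and 220 CPM with the GFP siRNA (0.44) and KIF5B 233 CPM with the HuR siRNA and 387 CPM with the GFP siRNA (-0.73). The intervals cover counting error only and not the spread between cultures.

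**Figure D5:**
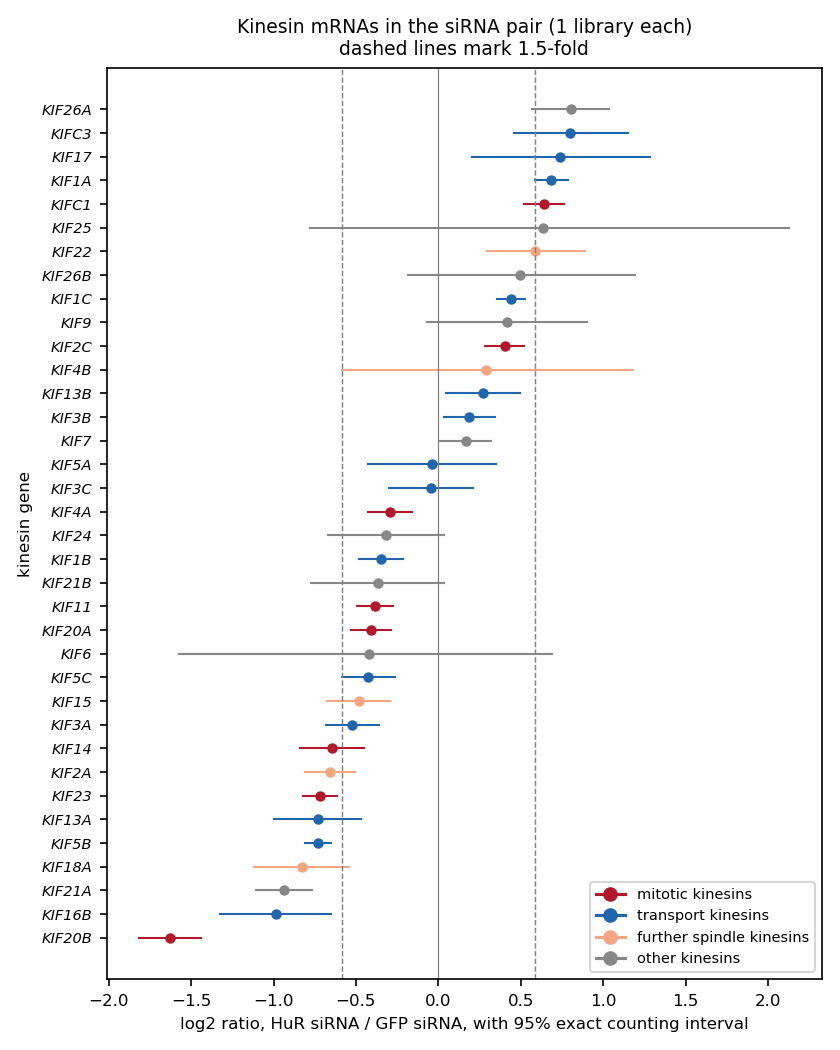
Log2 ratio of HuR siRNA over GFP siRNA for the 36 kinesins with at least 10 tags, sorted, with 95% exact counting intervals and dashed lines at 1.5-fold. KIF20B at -1.63 lies apart from the next member, KIF16B at -0.98.

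In this pair too the log2 ratio was higher in transcripts of higher GC content, with r of 0.822 across 36 kinesins and 0.71 across 11160 genes. The GC trend was taken from the 11160 genes of known composition among 13685 that had also passed the expression filter of the 8 libraries. KIF4B, KIF6, KIF25 and KIF26B had not passed it and were left out. With that trend removed, 0 of 32 kinesins were past 1.5-fold higher and 4 were lower. Of all 11160 genes, 876 were then higher and 933 lower. The 4 kinesins were KIF20B (-0.93), KIF21B (-0.86), KIF16B (-0.69) and KIF13A (-0.60). Of 19 spindle partners, whose median log2 ratio was 0.06, 4 were past 1.5-fold higher, BIRC5 (0.94) among them, and 5 lower, including ASPM (-1.18), ECT2 (-1.08) and the kinesin-7 CENPE (-1.0). Of 22 dynein and dynactin genes 3 were higher and 5 lower, and of 17 light chains and adaptors 6 were higher and 3 lower.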

How the data were processed

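Polyadenylated RNA of HEK293 cells was sequenced in 10 libraries. Per the file headers, each deposited table lists tags per transcript accession, the library's total, the transcript length and a signal value that the authors scaled for length and total, which was not used. The tag values are expected counts, fractional where the authors split a tag between transcripts, and only transcripts above 0 are listed. Aligner, genome build and annotation: not given in the sources used here.

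Transcripts were named through RefSeq and GENCODE tables (15886 and a further 134 of 25005), and those of the same name were summed. The other 8985 stayed unnamed. Each kinesin had a single named transcript, so its value is that of this transcript and not a sum. Whether unnamed transcripts include other kinesin forms was not examined. Expected counts were rounded. The 8 libraries of 4 groups were fitted together with edgeR 4.0.16 (R 4.3.3; TMM, filterByExpr, quasi-likelihood test, 13730 genes, Benjamini-Hochberg adjusted p under 0.05 over all of them). SE was taken as the log2 fold change over the square root of F. Residual degrees of freedom were 4 and prior degrees of freedom 40.3, so the spread used for each gene leaned mostly on that of all genes. As nothing says that libraries came from separate cultures, p-values reflect only the spread between these libraries, shared over genes, which may be technical. The siRNA pair has 1 library each, so log2 ratios carry 95% exact counting intervals for genes with at least 10 tags in both together, and 1.5-fold marks size. Alternatives were DESeq2 1.42.0, other scalings and filters, a replicate block, length and GC trends (lowess span 0.3), and leaving out each library. The fit was tested on simulated data. Figures were drawn with matplotlib 3.10.9.

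Members and lists were chosen with earlier results of these data known. Values per library are given for the 8 mitotic kinesins, the 6 transport kinesins highest in mean level, up to 3 called members each way per comparison whose libraries do not overlap, up to 4 each way in the siRNA pair, and up to 4 called genes of each partner list without library values; other members may be named with their values.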

Additional observations from a re-analysis of the deposited data

Results flagged for a closer look

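For 3 kinesins the effect of 365 nm light over 4SU alone differed from the effect of 254 nm light over untreated cells in the interaction term of the edgeR fit. KIF1C differed by 1.84 (log2), with 2.47 at 365 nm and 0.63 at 254 nm. KIF13A differed by 2.22, with -0.12 at 365 nm and -2.33 at 254 nm. KIF21A differed by 2.23, with -0.88 at 365 nm and -3.11 at 254 nm. The difference of KIF1C held in each fit without 1 library, with 1.79 to 1.92, and those of KIF13A and KIF21A did not. Groups of 2 libraries are too small for a test of single outlying libraries.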

How the results depend on the processing

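With 2 libraries a group, single libraries decided many calls. The kinesin count for 4SU over untreated (4) was 1 on library totals and with DESeq2, 7 with a replicate block, 2 with the compared groups alone, 0 at an adjusted p under 0.01, and 0 to 8 without 1 library. For 365 nm over 4SU (20) it was 13 with the length trend removed, 12 with length and GC trends removed and 15 to 21 without 1 library; for 254 nm over untreated (19) it was 12, 5 and 13 to 21 under the same steps. For 365 nm over 254 nm (5) it was 3 with RLE factors and DESeq2, 14 on library totals, 1 at an adjusted p under 0.01 and 2 to 6 without 1 library. For 365 nm over untreated (18) it was 28 on library totals, 7 with both trends removed and 15 to 21 without 1 library. For the difference of effects (3) it was 9 on library totals, 5 with the replicate block, 7 with both trends removed, 1 at an adjusted p under 0.01 and 1 to 6 without 1 library. The letters A and B pair the libraries by name only, and the correlations of their deviations were 0.18 for 365 nm with 4SU, 0.367 for 4SU with untreated, 0.123 for 254 nm with untreated, 0.0653 for 365 nm with untreated, -0.00243 for 365 nm with 254 nm and -0.113 for 4SU with 254 nm, which were not compared. The mitotic minus transport median ran without 1 library from -0.026 to 0.50 for 4SU over untreated, from -0.93 to -0.34 for 365 nm over 4SU (-0.21 with a filter of 5 CPM, -1.01 and -0.77 with length, and length and GC, trends removed), from 0.12 to 0.59 for 254 nm over untreated (0.03 and 0.20), from -0.53 to -0.20 for 365 nm over 254 nm, from -0.56 to 0.31 for 365 nm over untreated (-0.36 with the length trend removed), and from -1.19 to -0.97 for the difference of effects. In the siRNA pair the count of 16 of 36 kinesins was 4 of 32 with the GC trend removed and 1 of 36 at 2-fold. With length and GC trends removed the sign turned for KIF3A at 365 nm over 4SU (0.15) and for KIF11 (0.46), KIF18A (0.073), KIF20B (0.10) and KIF4A (0.38; 0.16 with length alone) at 254 nm; on library totals it turned for KIF17 (-0.33) and KIF22 (-0.82) at 365 nm over untreated. The cause was not tested. The GC alternatives were chosen after seeing the data. Of the values of named called kinesins under all alternatives, 963 kept direction and call, 196 kept direction only and 8 turned.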
